A study of Mus musculus with 2 samples.

Results

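Fibroblasts of the mouse uterus that carried transcripts of Inmt, Myoc, Scara5 and 4 companion genes were described in a control library and in a library from mice with a conditional deletion of Prickle1 (cKO). A barcode was taken as a cell when it held at least 500 genes and at most 20% mitochondrial unique molecular identifiers (UMIs, each counting 1 captured transcript). It was taken as stromal when Col1a1, Col1a2, Col3a1, Dcn and Lum together made up at least 0.5% of its UMIs and no Ptprc or Epcam transcript was present. The cells described here had in addition at least 3 of the 7 genes Inmt, Myoc, C1qtnf3, Pamr1, Scara5, Ces1d and Scn7a, and fewer than 3 of the 7 cytokine-program genes Il6, Cxcl5, Cck, Aldh1a3, Tslp, Pcolce2 and Ptx3. They numbered 233 of 2266 stromal cells and of 8603 cells in all, 168 of them in control and 65 in cKO. The selection used measured transcripts of the same cells, so marker levels are given as a description and no test compares these cells with other fibroblasts.

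The control library came from the whole uteri of 3 pooled female mice aged 6 months with floxed Prickle1 alleles. The cKO library came from 3 pooled females of the same age that carried the same floxed alleles and a Cre recombinase driven by the Ltf promoter. Ltf encodes lactoferrin, a secretory product of uterine epithelium and of neutrophils. The titles name the groups Prickle1 f/f and Prickle1 f/f Ltf-cre. The labels also call both samples C57BL/6J wild-type under genotype, and the groups used here follow the titles. With 1 library per group there is no replicate check, and effects of genotype, of the animals and of handling cannot be told apart. The 95% intervals given here cover counting error only.

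Uterine stroma holds several kinds of fibroblast. Adventitial fibroblasts around vessels carry genes such as Pi16, Cd34 and Ly6a and lie in a loose matrix, and other stromal fibroblasts answer ovarian steroids and build fibrillar collagen. Among the selection genes, Inmt encodes an enzyme that methylates indoleamines, Myoc encodes myocilin, a secreted glycoprotein, and C1qtnf3 encodes a secreted C1q and TNF related protein. Pamr1 encodes a secreted protein with a peptidase-like domain, Scara5 a scavenger receptor for ferritin, Ces1d a carboxylesterase that hydrolyses lipids and drugs, and Scn7a an atypical sodium channel. In the GENCODE M21 annotation of GRCm38 all 7 are protein-coding genes. Inmt lies at chr6:55170626-55175043, Myoc at chr1:162639155-162649693 and Scara5 at chr14:65666403-65764826. C1qtnf3 lies at chr15:10952332-10980150, Pamr1 at chr2:102550012-102643041, Ces1d at chr8:93166068-93197838 and Scn7a at chr2:66673425-66784914.

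Inmt, Myoc, C1qtnf3 and Igfbp3 were higher in these cells than in other fibroblasts, the first 3 through the choice of cells. The sequences before the start sites of these 3 selection genes and of Igfbp3, a secreted binding protein for insulin-like growth factors, are shown. They are from RefSeq on build GRCm38.p6, which had windows for 4 of the 7 selection genes, and run 5′ to 3′ on the gene's strand up to the base before the first transcribed base in RefSeq or GENCODE M21, whichever comes first. For Inmt the GENCODE M21 gene starts upstream of the RefSeq start, so 197 bases are shown and they end short of the RefSeq start; the other 3 stretches have 250 bases. The regions are chr6:55175044-55175240 on the minus strand for Inmt, chr1:162638900-162639149 on the plus strand for Myoc, chr15:10952082-10952331 on the plus strand for C1qtnf3 and chr11:7213924-7214173 on the minus strand for Igfbp3. Capitals mark TATAAA and CCAAT on either strand.
Inmt: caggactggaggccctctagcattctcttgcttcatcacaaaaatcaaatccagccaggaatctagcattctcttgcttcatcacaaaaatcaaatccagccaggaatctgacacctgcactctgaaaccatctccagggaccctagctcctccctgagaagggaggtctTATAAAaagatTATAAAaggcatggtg
Myoc: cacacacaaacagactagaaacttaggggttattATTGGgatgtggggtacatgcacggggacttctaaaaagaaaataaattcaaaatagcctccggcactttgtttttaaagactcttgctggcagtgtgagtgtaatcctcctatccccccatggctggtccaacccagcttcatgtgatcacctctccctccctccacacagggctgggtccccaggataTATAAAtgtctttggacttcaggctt
C1qtnf3: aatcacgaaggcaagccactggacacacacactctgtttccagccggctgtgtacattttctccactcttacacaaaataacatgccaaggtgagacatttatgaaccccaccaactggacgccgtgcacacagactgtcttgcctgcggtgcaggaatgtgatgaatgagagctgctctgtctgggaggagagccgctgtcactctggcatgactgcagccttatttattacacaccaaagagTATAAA
Igfbp3: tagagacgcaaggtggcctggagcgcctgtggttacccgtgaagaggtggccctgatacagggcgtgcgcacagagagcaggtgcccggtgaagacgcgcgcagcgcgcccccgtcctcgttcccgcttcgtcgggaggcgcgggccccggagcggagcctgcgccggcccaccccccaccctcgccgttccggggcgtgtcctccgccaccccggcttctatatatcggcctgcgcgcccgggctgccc
Over the 250 bases before the RefSeq start, TATAAA was found in 3 of the 4 windows of selection genes (Inmt, Myoc and C1qtnf3) and in 12.4% of all 32851 windows. CCAAT was found in 1 of the 4 (Myoc, on the opposite strand) and in 33.8% of all windows. The AP-1 motif TGANTCA and the interferon-response motif (GAAA, any 2 bases, GAAA) were in none of the 4, against 6.75% and 2.98% of all windows, again on both strands. Igfbp3 held none of these motifs, no motif contains another, and a match is a description of letters and not a bound site.

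The selected cells were deep in both libraries. Their median was 13791.5 UMIs in control (range 910 to 44987) and 15627 in cKO (1167 to 58293), and they held 2388589 and 1064380 UMIs in all. The other stromal fibroblasts, defined as stromal cells without enough of either marker set and without smooth-muscle-rich or mesothelial profiles, numbered 467 in control and 1101 in cKO. Their median depth was only 3772 UMIs in control against 13217 in cKO, so detection of markers inside and outside the selection was not at matched depth in control. No barcode was shared between the selected cells of the libraries, and 5 were shared among all cells. Of barcodes with at least 200 but under 500 genes, 0 of 261 stromal ones in control and 0 of 233 in cKO met the marker steps. That allows a share of up to 1.40% and 1.57% (exact Clopper-Pearson limits).

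Dcn and Lum are part of the sum that each selected cell had to reach, so they describe the cells and are no check of their label, and the Myoc part of the label fitted few cKO cells (6 of 65). Dcn and Lum, small proteoglycans of fibroblast matrix, were at 7807 and 2214 CPM (UMIs scaled to a library total of 1000000) in control and at 7996 and 2314 CPM in cKO. All 8 markers of a fibroblast list were present in each library, and Ptprc and Epcam were 0 by selection. Markers of other cells were low: the summed level of 8 leukocyte markers was 62.4 CPM in control and 29.1 in cKO, of 8 epithelial markers 29.3 and 10.3, of 6 endothelial markers 25.5 and 51.7, and of 6 pericyte markers 34.3 and 19.7. The median cell was at 0 for each of these 4 lists. Smooth muscle markers summed to 591 CPM in control and 582 in cKO, most of it Des at 464 and 335 CPM, but of the 6 counted 3 were at least 2-fold higher in cKO and 0 lower (median 0.90), with Acta2 at 28.1 and 85.5 CPM. Mesothelial markers summed to 33.1 and 20.7, Schwann cell markers to 2.09 and 4.70, and adipocyte markers to 0 and 0.939. A UMI of an endothelial marker was found in 20.8% of control and 43.1% of cKO cells, and of a pericyte marker in 26.8% and 16.9%. At 0 were Cdh5 and Mmrn1 of endothelium and Rgs5, Kcnj8 and Higd1b of pericytes in control, and Mmrn1 and Higd1b in cKO; the part of these cells in the results was not tested. One control cell held 99.3% of the 2728 haemoglobin UMIs, which were 0 in cKO, and haemoglobin genes are named nowhere else. A doublet score above 0.25 was found in 2 control cells and 0 cKO cells of the selection.

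Cells that met the selection made up a smaller part of the stromal cells in cKO. They were 168 of 775 stromal cells in control (21.7%, exact interval 18.8 to 24.8%) and 65 of 1491 in cKO (4.36%, 3.38 to 5.52%), a share 4.97-fold higher in control (3.79 to 6.53). Of all cells they were 4.60% (3.94 to 5.33%) and 1.31% (1.01 to 1.67%). The gap depended on how many markers were asked for: with at least 4 of the 7 the shares were 12.8% and 1.01%, and with at least 2 they were 31.0% and 13.6%. Cells thinned to 3000 UMIs before the selection gave 11.8% and 0.717%. The order of the libraries was the same in all of these settings, which all chose cells by the same marker genes. In other fibroblasts C1qtnf3 (72.7 and 16.7 CPM), Ces1d, Myoc, Pamr1 and Scn7a were also lower in cKO, while Inmt and Scara5 were not. The part of marker levels per cell in the difference of the shares was not tested. Since these shares count cells captured from dissociated tissue, they are not shares of the uterus.

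Near the limits the libraries differed in composition. Exactly 3 markers were found in 69 control and 50 cKO cells, so most cKO cells were at the threshold, while 4 or more were found in 99 control and 15 cKO cells. Cells with exactly 3 markers had Inmt at 61.3 CPM in control and 36.5 in cKO, and cells just outside, with exactly 2, had 7.66 and 16.1. Myoc was at 57.0 CPM in control cells with exactly 3 markers and at 20.8 in those with exactly 2; in cKO it was at 9.12 and 4.21. The limit on cytokine genes removed 60 of 228 control cells with enough markers (26.3%, 20.7 to 32.5%) and 48 of 113 cKO cells (42.5%, 33.2 to 52.1%). Cells with 2 cytokine genes had Il6 at 151 CPM in control and 680 in cKO, and those just outside, with 3, had 236 and 793.

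The marker combination differed between the libraries. Inmt was at 118 CPM in control and 58.2 in cKO, C1qtnf3 at 366 and 111, and Pamr1 at 162 and 35.7. Each of these was higher in control, though Inmt was level (log2 ratio 0.09) among cells with at least 4 markers, and each was lower in other fibroblasts: Inmt was at 4.79 and 5.68 CPM there. Myoc differed most, with 305 UMIs in 75 of 168 control cells (128 CPM) and 9 UMIs in 6 of 65 cKO cells (8.46 CPM). Ces1d was at 262 CPM in control and 102 in cKO, and 25.9% of its cKO UMIs came from 1 cell. Scn7a was nearly level at 66.2 and 57.3 CPM. Scara5 was the exception in direction, at 30.6 CPM in control, where 38 of 168 cells had it, and 73.3 in cKO, where 34 of 65 did.

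**Figure D1:**
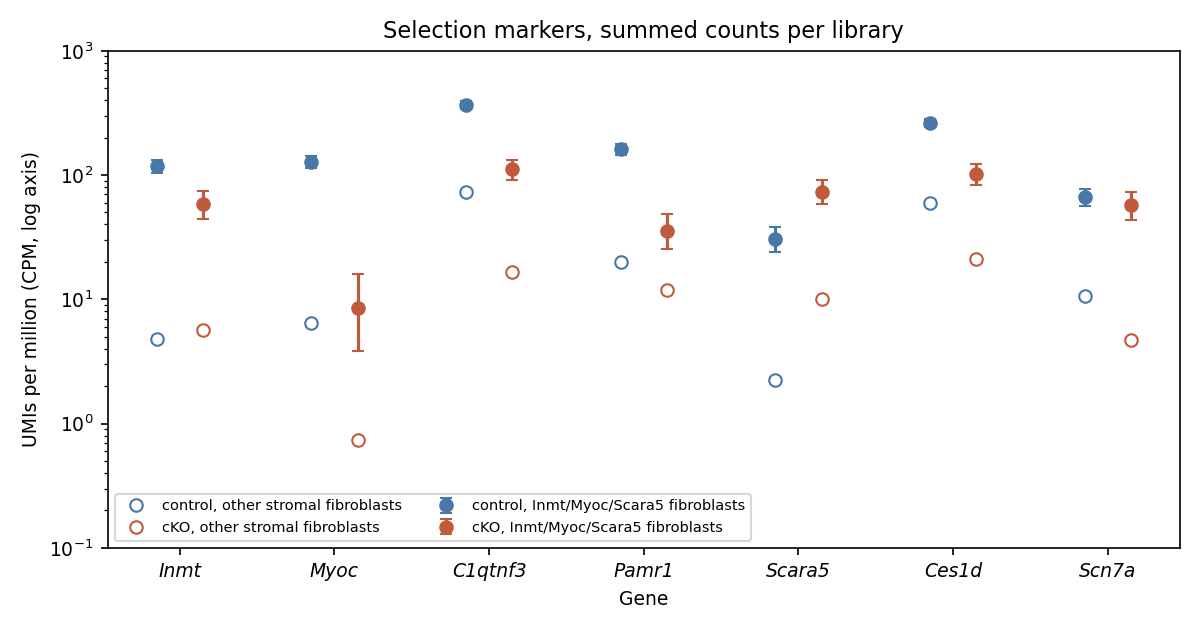
Levels of the 7 selection genes (vertical axis, CPM of summed UMIs, log scale) in control and cKO. Filled points with 95% Poisson bars are the selected fibroblasts and open points are other stromal fibroblasts; Myoc is at 128 CPM in control and 8.46 in cKO, and among filled points only Scara5 is higher in cKO.

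Because detection of a marker helped to choose the cells, each marker was also measured in cells chosen with at least 3 of the other 6. Myoc was then at 115 CPM in control (253 UMIs, 151 cells) and 1.02 in cKO (1 UMI, 60 cells), a ratio of control to cKO of 113 with a counting interval of 20.1 to 4478. Ces1d was at 225 and 15.1 CPM, 14.9-fold higher in control (8.02 to 31.3). Pamr1 was at 144 and 18.8 CPM, 7.65-fold higher in control (4.40 to 14.6), and C1qtnf3 at 395 and 90.1, 4.38-fold higher (3.13 to 6.31). Inmt was 2.41-fold (1.64 to 3.66) and Scn7a 2.19-fold (1.33 to 3.82) higher in control. Scara5 was at 29.1 and 34.7 CPM, a ratio of cKO to control of 1.19 (0.722 to 1.91), so its difference was within counting error once it was not used to choose the cells. Droplets can hold free transcripts: Myoc was found in 6 of 749 leukocyte-marked control cells (0.801%, median depth 6431 UMIs) and 0 of 1679 in cKO (median 5500). In the cells chosen without Myoc it was found in 58 of 151 control cells (38.4%, median depth 14072 UMIs) and 1 of 60 cKO cells (1.67%, 0.0422 to 8.94%, median 15647), so the leukocyte-marked cells were shallower.

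Among the genes of the exclusion set, Il6 was at 71.6 CPM in control and 402 in cKO, with UMIs in 24 and 23 cells, and 1 cell gave 33.3% and 28.3% of them. Cxcl5 was at 101 and 461 CPM, and a single cell held 94.6% and 94.5% of its UMIs. Ptx3, a pentraxin of innate defence, was at 258 and 234 CPM, with UMIs in 52 and 15 cells. A single cell gave 27.5% of its UMIs in control and 81.9% in cKO. Pcolce2, which assists collagen processing, was at 74.9 and 73.3 CPM. Cck was at 7.95 and 16.0 CPM, and Aldh1a3 and Tslp had 16 UMIs each in control and 2 each in cKO.

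The selected cells of the libraries lay in different places when stromal cells were clustered together (723 control and 1434 cKO cells, 12 clusters, resolution 1). Of the control cells 65 lay in cluster 4, 58 in cluster 1 and 36 in cluster 2. Of the cKO cells 20 lay in cluster 7, 15 in cluster 4, 9 in cluster 6, 8 in cluster 9 and 5 in cluster 5. Cluster 4 was the only one with at least 15 selected cells of each library and also had the highest Inmt level of all clusters, 206 CPM. Cluster 0 was led by genes that included the mesothelial markers Lrrn4 and Upk3b, and cluster 11 by leukocyte genes such as C1qb and Icos. These clusters held 1 and 2 selected cells of each library, so not every clustered cell had a fibroblast profile. Cluster 2 held 98 control cells and 0 cKO cells, so it is a cluster of 1 library. Differences between the libraries described next are therefore between selected cells that sit in partly different clusters.

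**Figure D2:**
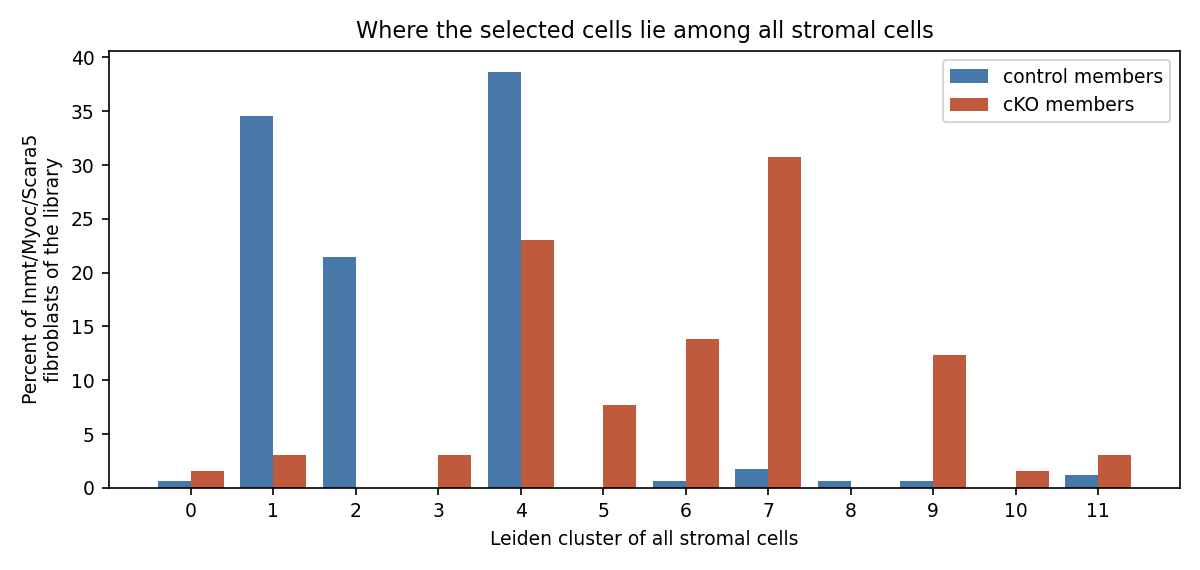
Percent of the selected fibroblasts of each library (vertical axis) that lay in each of 12 clusters of stromal cells (horizontal axis). Control cells were mostly in clusters 4, 1 and 2, and cKO cells were spread over 7, 4, 6, 9 and 5.

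When only the selected cells were clustered, 4 sub-clusters were found. Sub-cluster 2 held 50 control and 20 cKO cells, and had the highest levels of Inmt (239 CPM), Scara5 (137 CPM) and Pamr1 (206 CPM), with a lower median depth of 8362 UMIs. Sub-cluster 0 held 24 control and 37 cKO cells and had the lowest Inmt (31.3 CPM) and Myoc (31.3 CPM). Sub-clusters 1 (58 control and 1 cKO cells) and 3 (36 and 7) were mainly control. Heat-shock genes Hspa1a and Hspa1b were among the genes leading sub-cluster 2, at 1071 and 3635 CPM against 29.5 and 164 CPM in the rest; they are near-identical copies, so their split is uncertain. Their part in the differences within this sub-cluster was not tested. Sub-clusters 0 and 2 were the ones with at least 15 cells of each library. The summed level of the 7 selection genes was 1447 CPM in sub-cluster 2 and 440.3 in sub-cluster 0. From here on sub-cluster 2 is used for comparisons within a sub-cluster, and sub-cluster 0 is added for some genes and lists. Not every selection gene was highest in sub-cluster 2: Myoc and Ces1d were higher in sub-cluster 1 and C1qtnf3 in sub-cluster 3. Of the 4471 genes counted in it 6.82% were at least 2-fold higher in cKO and 10.2% lower, and of 6460 in sub-cluster 0 these were 8.82% and 4.5%.

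Genes that label other fibroblasts were also found in the selected cells. At least 2 of Cilp, Sfrp4 and Gpr83 were present in 13 of 168 control cells (7.74%, 4.18 to 12.9%) and 25 of 65 cKO cells (38.5%, 26.7 to 51.4%). In leukocyte-marked cells, which should lack them and were shallower, this was 1 of 749 in control (0.134%) and 6 of 1679 in cKO (0.357%). At least 2 of Hsd11b2, Rorb and Syt2 were present in 1 control cell (0.595%, 0.0151 to 3.27%) and 5 cKO cells (7.69%, 2.55 to 17.1%), against 0.134% and 0.893% of leukocyte-marked cells. At least 2 of Cyp26b1, Dio2 and Prrx2 were present in 3 control cells (1.79%, 0.370 to 5.13%) and 4 cKO cells (6.15%, 1.70 to 15.01%). The intervals of the last 2 sets overlapped between the libraries. Levels of these genes in cell-free droplets were also higher in cKO, at 11.6 and 82.3 CPM for Sfrp4, 16.3 and 50.3 for Cilp and 9.31 and 82.7 for Hsd11b2, and their part in these shares was not tested.

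Several genes outside the selection were higher in the selected cells than in other fibroblasts of both libraries. The rule that named them took, for each gene, the lower of its ratios in the 2 libraries, and cytokine-rich fibroblasts are not among the other fibroblasts. Several of these genes were as high there: in control C3 was at 515 CPM, Clec3b at 330, Cxcl12 at 487, Lpl at 277 and Enpp2 at 92.0, and in cKO C3 was at 799 and Lpl at 262. C2, a complement protease, was at 48.6 CPM in selected control cells against 15.2 in other control fibroblasts, and at 27.2 against 7.23 in cKO. Apod, an apolipoprotein of lipid transport, was at 103 against 14.1 CPM in control and 32.9 against 11.1 in cKO. Clec3b, which encodes tetranectin, was at 294 against 116 CPM and 430 against 103. Cxcl12, a chemokine that retains leukocytes and progenitor cells, was at 486 against 165 CPM and 285 against 104. C3, the central complement component, was at 438 against 186 CPM and 696 against 196. In cell-free droplets C3 was at 777 CPM in control and 214 in cKO, so the selected control cells were below the cell-free level.

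The same ranking named secreted and lipid-handling proteins. Lpl, a lipase at the vessel wall, was at 278 against 96.7 CPM in control and 244 against 74.6 in cKO. Selenop, a selenium carrier, was at 439 against 139 and 201 against 73.9, and Enpp2, which makes lysophosphatidic acid, at 89.6 against 27.3 and 58.2 against 20.7. Vegfd, a lymphatic growth factor, was at 82.9 against 27.1 CPM and 43.2 against 16.2. Prelp, Abi3bp and Svep1, all matrix proteins, were 3.64-, 2.31- and 2.82-fold higher in control and 3.04-, 2.89- and 2.38-fold higher in cKO. Fmo2, a flavin monooxygenase, was 3.97- and 3.16-fold higher, but 56.0% of its control UMIs came from 1 cell. The others named were Pcdh17, Csdc2, Ctsf, Ms4a4d, Akap12, Cdon and Igfbp3, with ratios from 2.35 (Cdon) to 3.76 (Ms4a4d) in control and from 2.53 (Ms4a4d) to 3.43 (Pcdh17) in cKO. These are levels in cells chosen on companion transcripts, and the depth gap in control stands beside them.

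Between the libraries, 9122 genes had at least 20 UMIs over both sets of selected cells. Of these 486 (5.33%) had a CPM at least 2-fold higher in cKO and 652 (7.15%) at least 2-fold lower, and the median log2 ratio of all was -0.04. All list counts in these cells given next are to be read against these 2 shares. In other stromal fibroblasts 924 (7.44%) of 12420 genes were at least 2-fold higher in cKO and 648 (5.22%) lower. Prickle1 itself, the targeted gene, had 14 UMIs in the selected control cells (5.86 CPM) and 8 in cKO (7.52 CPM), a ratio of 1.28 with an interval of 0.466 to 3.28. The labels do not place the floxed exons against the transcript ends that were read, so this is no check of the deletion. Ltf had 3 UMIs in control and 0 in cKO.

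Fibrillar and microfibrillar collagens were among the genes named as higher in cKO. Col1a1 was at 443 CPM in control (98 of 168 cells) and 2972 in cKO (57 of 65 cells), 6.71-fold higher in cKO (6.26 to 7.20). Col1a2 was at 938 and 4292 CPM (4.57-fold, 4.35 to 4.81) and Col3a1 at 284 and 1621 CPM (5.70-fold, 5.21 to 6.24). Col6a1 and Col6a2, chains of the beaded-filament collagen around cells, were at 469 and 290 CPM in control and 2063 and 1600 in cKO, 4.40- and 5.52-fold higher. Col14a1, a fibril-associated collagen, was at 102 and 449 CPM (4.41-fold, 3.78 to 5.17).

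In control the selected cells had Col1a1 at 443 CPM, against 2849 in other fibroblasts and 744 in cytokine-rich fibroblasts (stromal cells with at least 3 of the 7 cytokine genes). In cKO the levels were 2972, 3161 and 1680 CPM, and Col6a2 was at 290, 1306 and 464 CPM in control, so low collagen levels in control were shared with the cytokine-rich cells. Col1a1, Col1a2 and Col3a1 belong to the sum that defined stromal cells, whereas the Col6 chains do not. Per cell, the sum of Col1a1, Col1a2 and Col3a1 ran from 0 through a median of 646 to 35937.8 CPM in control and from 0 through 4128 to 67047.4 in cKO. The ranges overlapped, but the quartiles did not: they were 137 and 1785 CPM in control and 1831 and 11127.6 in cKO. The sum of Dcn and Lum had medians of 9507 and 11351.2 CPM per cell.

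**Figure D3:**
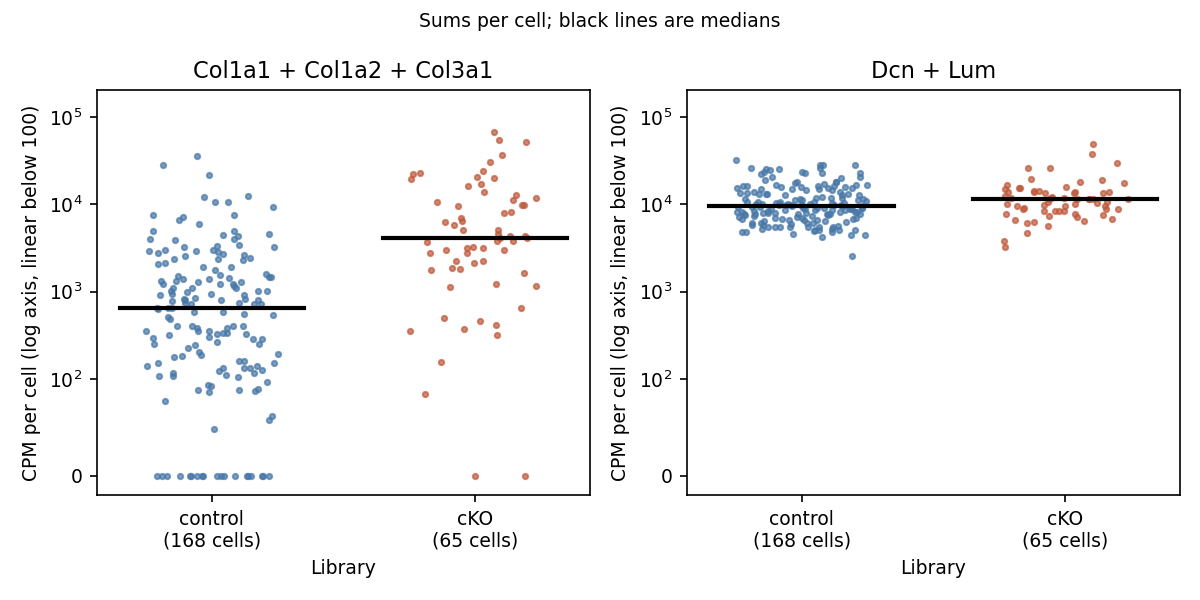
Each point is 1 selected cell; the vertical axes give the CPM of Col1a1, Col1a2 and Col3a1 together (left) and of Dcn and Lum together (right), on a log axis that is linear below 100, and black lines are medians. The collagen medians are 646 CPM in control and 4128 in cKO, while the Dcn and Lum medians are 9507 and 11351.2.

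Of 19 collagen genes counted, 10 were at least 2-fold higher in cKO (background 5.33%) and 1 lower, with a median log2 ratio of 1.29 against -0.04 for all genes. Without Col1a1, Col1a2 and Col3a1, which are in the sum that chose the cells, 7 of 16 were higher and 1 lower (median 0.96). The lower one was Col8a1, with 24 and 5 UMIs and 87.5% of the control UMIs in 1 cell. In other fibroblasts 1 of 21 was higher and 0 lower, with a median of 0.03. Within sub-cluster 2 Col1a1 was at 1227 CPM in control and 4055 in cKO and Col6a1 at 881 and 2889, and 11 of 17 collagens counted were at least 2-fold higher and 1 lower (median 1.28). Smooth muscle markers were higher in the same sub-cluster, 3 of 4 counted with 0 lower (median 1.92), and their part in the collagen difference was not tested. The median of the collagen list stayed between 0.99 and 2.42 over the 12 other settings tried.

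Other matrix genes were higher in part. Of 32 matrix proteoglycans and glycoproteins 8 were at least 2-fold higher and 1 lower (median 0.36), and without Dcn and Lum 8 of 30 and 1 (median 0.42). Sparc, a collagen-binding matricellular protein, was at 814 and 2860 CPM, Fn1, fibronectin, at 204 and 502, Eln, elastin, at 163 and 395, and Spon2 at 133 and 482. Tnc, tenascin C, was lower, at 88.8 and 31.0 CPM. Of 24 proteases and inhibitors 2 were higher and 6 lower (median 0.20), and without the selection gene Pamr1 2 and 5 of 23. The gelatinase Mmp2 was at 839 and 325 CPM, the stromelysin Mmp3 at 870 and 325, and Mmp11 at 107 and 12.2. The aggrecanase Adamts5 was at 101 and 31.0 CPM, whereas Adamts4 was at 85.0 and 215 and the protease inhibitor Timp1 at 23.4 and 109.

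The adventitial gene list was also higher in cKO. Of 20 genes 9 were at least 2-fold higher and 0 lower (over all genes 5.33% and 7.15%), with a median of 0.88 against 0.48 in other fibroblasts. Pi16, a marker of adventitial progenitor-like fibroblasts, was at 18.4 CPM in control and 85.5 in cKO, Cd34 at 116 and 249, Ly6a at 120 and 326, and Has1, a hyaluronan synthase, at 136 and 450. Gsn, gelsolin, was at 3005 and 5960 CPM, just under 2-fold. Ly6c1, at 20.1 and 87.4 CPM, has close copies and its count is uncertain. Within sub-cluster 2 the count was 7 of 20 higher and 0 lower, with a median of 0.90.

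Outside the collagens, the genes named as higher in cKO were led by Cilp, a cartilage intermediate layer protein, at 59.4 CPM in control (26 cells) and 462 in cKO (31 cells), 7.78-fold higher (6.44 to 9.44). In other fibroblasts it was at 105 and 148 CPM, 1.41-fold higher, and within sub-cluster 2 it was at 72.7 and 138 CPM. Cmklr1, the chemerin receptor, had 16 and 63 UMIs (6.70 and 59.2 CPM), and Adgrd1, an adhesion receptor, was at 15.5 and 109 CPM. In sub-cluster 2 Cmklr1 had 2 UMIs in each library, and Adgrd1 10 and 6. Itgb3, an integrin chain, was at 8.37 and 52.6 CPM but had 2 and 0 UMIs there. Plac8 was at 85.8 and 408 CPM, but at 104.5 and 138 in sub-cluster 2, and at 418 and 406 in leukocyte-marked cells and 397 and 241 in cell-free droplets. Ctla2a, a cysteine protease inhibitor with a close copy, was at 607 and 3896 CPM, and in other fibroblasts it was at 183 and 2622, a difference in the same direction.

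On the lower side, Myoc stood first, 15.1-fold lower in cKO by the counts above. That size depended on how cells were chosen: after thinning, when all 7 markers again chose the cells, 65 control and 10 cKO cells held 69 and 6 Myoc UMIs, a log2 ratio of -0.72 against -3.84. The other genes named as lower were ones that selected control cells carried above other control fibroblasts. Gpnmb, a transmembrane glycoprotein, gave 348 UMIs over 123 control cells (146 CPM) and 16 UMIs over 14 cKO cells, 9.69-fold higher in control. Mustn1 was at 84.1 and 6.58 CPM, Clba1 at 38.5 and 3.76, and Sap30, a histone deacetylase complex subunit, at 51.5 and 7.52. Igfbp3 was at 1521 CPM in 154 of 168 control cells and 414 in 33 of 65 cKO cells, 3.67-fold higher in control (3.33 to 4.06). Mxra8, a matrix remodelling associated membrane protein, was at 304 and 68.6 CPM, Mdk, the growth factor midkine, at 402 and 119, and Ahnak2 at 59.9 and 11.3. C4b, at 69.5 and 13.1 CPM, has a close copy in the complement locus. Within sub-cluster 2 Gpnmb was at 220 and 24.0 CPM, Mmp11 had 79 UMIs and 0, Igfbp3 was at 1490 and 565 CPM, and Myoc had 67 UMIs and 1.

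**Figure D4:**
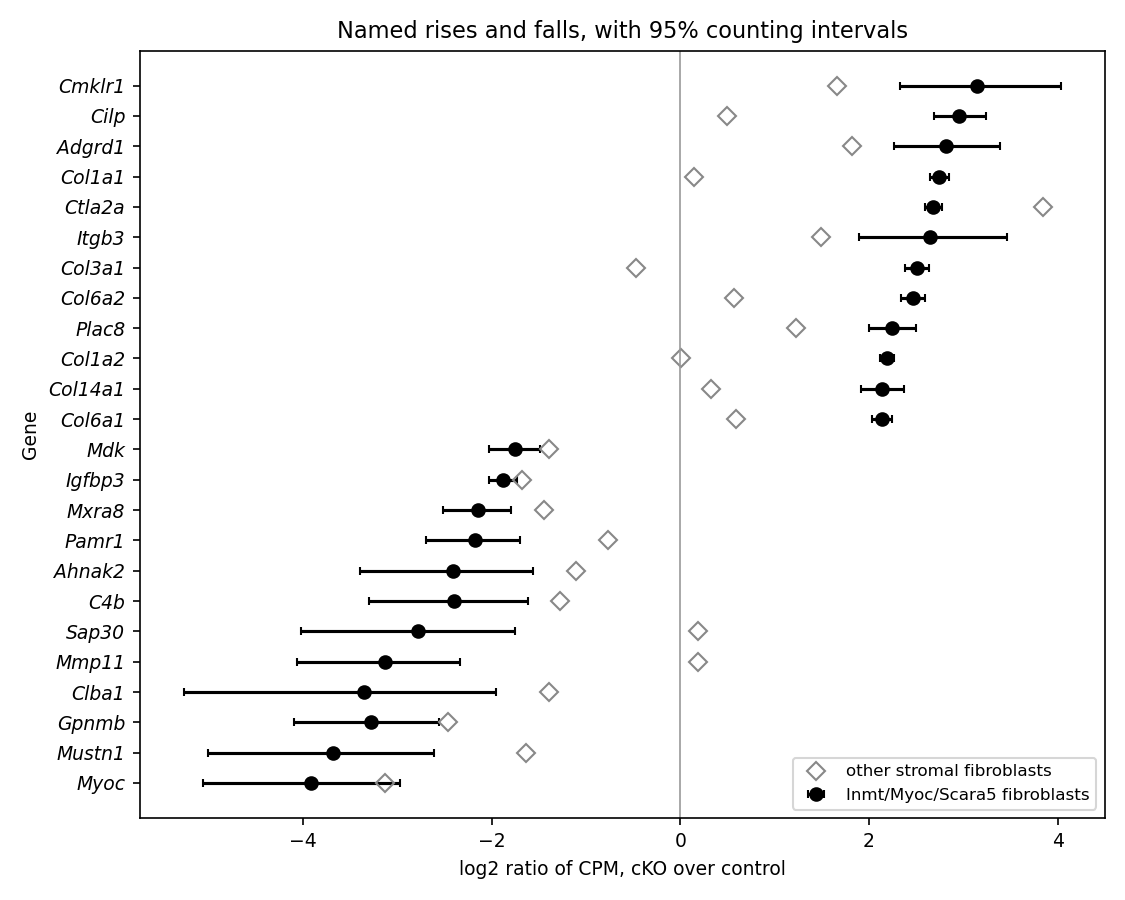
Log2 ratio of CPM, cKO over control (horizontal axis), for the 12 named genes higher and the 12 lower in cKO. Black points with 95% counting intervals are the selected fibroblasts and grey diamonds are other stromal fibroblasts. Mmp11 and Sap30 have diamonds near 0, and Igfbp3 has a diamond close to its black point. The Gpnmb diamond lies on the same side of 0 as its black point but nearer to 0.

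Several of these differences were seen in other fibroblasts too. Igfbp3 was at 462 and 144 CPM there, Gpnmb at 37.8 and 6.86, and Mdk at 223 and 84.6. Myoc was at 6.48 and 0.741 CPM there, from 23 and 12 UMIs. For Mmp11 the other fibroblasts had 16.4 CPM in control and 18.6 in cKO, and for Sap30 12.7 and 14.5. Whether the differences between the libraries were of different size in the selected cells and in the rest was not tested, since 1 library per group allows no such test.

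Growth factor systems differed in mixed directions. Of 10 genes of the insulin-like growth factor axis 3 were at least 2-fold higher and 1 lower (median 0.52): Igf1, the ligand, was at 62.4 and 277 CPM, Igfbp4 at 68.2 and 168, Igfbp6 at 430 and 902, and Igfbp3 was the lower one. Of 21 BMP, activin and TGF-beta genes 5 were higher and 0 lower (median 0.49). Inhba, an activin subunit, was at 245 and 955 CPM and Fst, its binding antagonist follistatin, at 182 and 457; Tgfbr2 was at 198 and 452 and Tgfbr3 at 69.5 and 162. Within sub-cluster 2 this list had 3 higher and 4 lower of 18 (median 0.14), and within sub-cluster 0 it had 6 higher and 0 lower of 19 (median 0.67). Of 22 growth factor and guidance ligands 5 were higher and 4 lower (median 0.40), with Nrg1, a neuregulin, at 123 and 363 CPM and Angptl2 at 97.5 and 27.3.

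Of 13 Wnt ligands and modulators 2 were at least 2-fold higher and 4 lower (median -0.20). Sfrp4, a secreted Wnt antagonist, was at 107 and 288 CPM, and Wnt5a at 11.7 and 25.4. Wnt4 was at 51.5 and 19.7 CPM, Rspo3, which amplifies Wnt signals, at 45.2 and 19.7, Sfrp1 at 57.4 and 24.4 and Dkk3 at 42.3 and 20.7. Of 16 planar cell polarity genes, the system in which Prickle1 acts, 1 was higher and 1 lower (median -0.03): Fzd2 at 20.1 and 40.4 CPM and Vangl1 at 7.95 and 3.76. For Fzd2 44.2% of the cKO UMIs came from 1 cell. Vangl1 had 19 and 4 UMIs, and the interval of its ratio, 0.117 to 1.42, includes 1.

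UMIs of steroid receptor genes were present in both libraries. Of 15 genes of the uterine stroma and steroid receptor list 3 were at least 2-fold higher and 1 lower (median 0.19). Pgr, the progesterone receptor, was at 336 and 692 CPM and Esr1, the oestrogen receptor, at 79.1 and 178. In cell-free droplets Pgr was at 95.03 and 371 CPM and Esr1 at 82.2 and 120, so Esr1 in the selected control cells was at the cell-free level; in leukocyte-marked cells Pgr was at 24.9 and 40.7 and Esr1 at 14.0 and 15.4. Tcf21, a stromal transcription factor, was nearly level at 330 and 316 CPM, and Nr3c1, the glucocorticoid receptor, was at 231 and 156. In other fibroblasts Pgr was at 594 and 844 CPM, so the selected control cells were the lowest of the 4 sets. Of 15 glucocorticoid response genes 1 was higher (Hsd11b2, at 8.79 and 44.2 CPM) and 1 lower (Myoc), with a median of 0.16. Mt1 and Mt2, metallothioneins, were at 1044 and 844 CPM in control and 1247 and 1349 in cKO.

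Adipogenic and lipid genes were on the lower side, and small-molecule enzyme genes went both ways. Of 15 adipogenic and lipid genes 0 were at least 2-fold higher and 8 lower (background 7.15%), with a median of -1.26 against -0.04 in other fibroblasts. Apoe, an apolipoprotein, was at 661 and 253 CPM and Apod at 103 and 32.9. Pparg, the adipogenic receptor, had 36 and 4 UMIs, and Cd36, a fatty acid carrier, had 32 and 1, of which 1 control cell gave 90.6%. Adipocyte markers Adipoq, Plin1, Cidec and Lep had 0 UMIs in control and 1 in cKO. Within sub-cluster 2 the list had 0 higher and 1 lower of 11 (median -0.24), and after thinning of cells the median was 0.36. Of 18 detoxifying and small-molecule enzymes 4 were higher and 5 lower (median -0.60), among them Ptgis, prostacyclin synthase, at 156 and 424 CPM, and Fmo2 and the selection genes Inmt and Ces1d on the lower side. Without Inmt and Ces1d 4 of 16 were higher and 3 lower (median -0.44). The list had 4 higher and 0 lower of 14 in sub-cluster 0 (median 0.25) and 1 higher and 4 lower of 14 in sub-cluster 2 (median -0.60).

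Interferon-response genes were lower in cKO by the main count. Of 29 genes 1 was at least 2-fold higher and 19 lower (over all genes 5.33% and 7.15%; median -1.58), and in other fibroblasts 1 was higher and 29 lower of 38 (median -2.08). Ifit1, which binds viral RNA, was at 51.1 CPM in control and listed at 0 in cKO, Rsad2, the antiviral protein viperin, at 61.5 and 4.70, and the chemokine gene Cxcl10 at 306 and 40.4. These genes were also higher in control outside the selected cells: Ifit1 was at 306.4 and 14.0 CPM in cell-free droplets and 876 and 37.9 in leukocyte-marked cells, Rsad2 at 406.5 and 49.0 cell-free, and Cxcl10 at 211 and 40.7 cell-free. Ifit1 and Rsad2 in the selected cells were thus below the cell-free level of each library. With cell-free RNA subtracted at an assumed 5% of UMIs the list had 1 higher and 18 lower (median -1.83); other shares of free RNA were not tested. Stromal cluster 2, which held 36 of the selected control cells and 0 cKO cells, was led by Ifit1. One control cell gave 20.5% of the UMIs of the whole list and 51.6% of those of Ifit1. Without it the count was 2 higher and 18 lower, with a median of -1.003, and Ifit1 was at 24.9 CPM in control, at least 8.85-fold lower in cKO against a floor of 3 counts over the cKO cells. The median cell had 821 CPM of the summed list in control and 875 in cKO. The median log2 ratio of the list turned to 0.34 when at least 4 markers were asked for and to 0.77 after thinning. In sub-cluster 2 the list had 2 higher and 3 lower of 10 (median 0.06), and in sub-cluster 0 it had 0 higher and 17 lower of 21 (median -2.97). Of 40 promoter windows of the list 21 held the interferon-response motif given earlier (52.5%), against 2.98% of all windows. The list was chosen as interferon-response genes, so this describes the list and not the libraries.

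**Figure D5:**
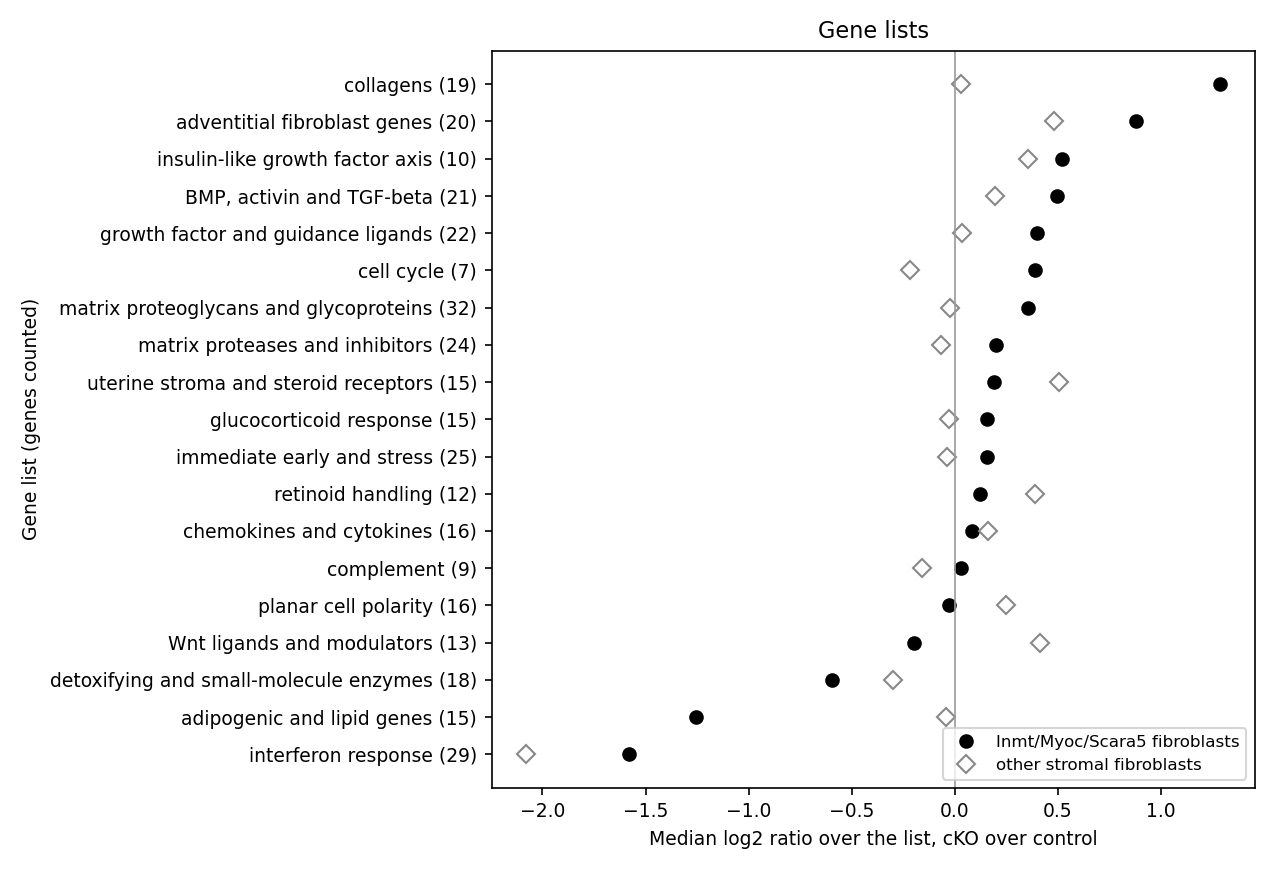
Median log2 ratio of CPM, cKO over control (horizontal axis), for each gene list with the number of genes counted. Black points are the selected fibroblasts and grey diamonds other stromal fibroblasts; collagens are at 1.29 and 0.03, adipogenic genes at -1.26 and -0.04 and interferon genes at -1.58 and -2.08.

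Of 16 chemokines and cytokines 6 were at least 2-fold higher and 3 lower (median 0.08). Without the 2 cytokine genes that the choice of cells used, 4 of 14 were higher and 3 lower, and the median changed sign to -0.13. Lif, a cytokine of implantation, was at 310 and 1001 CPM, Ccl11, an eosinophil chemoattractant, at 13.0 and 89.3 and Il11 at 53.6 and 143; Kitl, the ligand of the Kit receptor, was at 185 and 82.7. In sub-cluster 2 the list had 2 higher and 4 lower of 11 (median -0.81). Of 9 complement genes 1 was higher (Cd55, a complement inhibitor, at 172 and 398 CPM) and 1 lower (C4b). Of 12 retinoid handling genes 2 were higher and 1 lower (median 0.12). Aldh1a2, which makes retinoic acid, was at 14.7 and 93.9 CPM, and Rarres2, which encodes chemerin, at 434 and 190.

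Genes that respond to dissociation and stress were counted as a list. Of 25 immediate early and stress genes 2 were at least 2-fold higher and 1 lower (median 0.16), with Ier3 at 167 and 453 CPM and Dnajb1 at 86.2 and 37.6. In sub-cluster 0 6 of the 25 were higher and 0 lower (median 0.36; over all its genes 8.82% and 4.5%), and in sub-cluster 2 0 were higher and 4 lower (median -0.10; over all its genes 6.82% and 10.2%). The difference between the sub-clusters was not tested. After thinning of cells the median was 0.82. Of 7 cell cycle genes with enough UMIs 0 were higher and 1 lower (median 0.39). That gene was Cdkn1a, which encodes the cell cycle inhibitor p21, at 652 and 315 CPM, and Pcna was at 180 and 236.

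For some genes named above, the level in the library where the selected cells were higher did not exceed the cell-free level of that library: Igf1, Aldh1a2, Hsd11b2, Wnt5a, Cck, Ier3 and Pcna in cKO, and Ifit1, Rsad2, Dnajb1, Cd36, Pcdh17, Hspa1a and Hspa1b in control. With cell-free RNA subtracted at an assumed 5% of UMIs the log2 ratios were 2.15 for Igf1, 2.65 for Aldh1a2, 2.25 for Hsd11b2 and 1.65 for Ier3, and larger shares of free RNA were not tested.

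The stricter selections were small, with 99 control and 15 cKO cells at 4 or more markers and 65 and 10 cells after thinning to 3000 UMIs. Some named genes had the opposite direction in one of these or within sub-cluster 2. Among genes described above whose main interval excluded a ratio of 1 these were Inmt, Il6, Cxcl5, Fmo2, Enpp2, Cxcl12, Apod, Mt1, Mt2, Adamts4, Sfrp4, Nr3c1, Inhba, Nrg1, Cxcl10, Dnajb1 and Cdkn1a, so their directions hold for the selection as made. Genes whose main intervals include a ratio of 1, such as Scn7a, Lpl, Lum, Tcf21 and Pcdh17, also changed sign in some settings: within sub-cluster 2 Scn7a was at 127 and 144 CPM and the log2 ratios of Lpl and Lum were 0.52 and -0.08. The 12 genes named as higher and the 12 named as lower kept their direction in each setting in which they held at least 20 UMIs.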

How the data were processed

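Whole uteri were digested with collagenase and DNase for 5 hours and sequenced as droplet libraries, per the labels' protocols. The authors deposited unfiltered UMI counts per gene and barcode; Cell Ranger 4 is named per the file headers, and Cell Ranger 6.1.1 and build mm10 per the submitters' processing notes. Further aligner settings are not given in the sources used here. The libraries held 45035801 (control) and 57145553 (cKO) UMIs.

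The selection and the gene lists were chosen with earlier results of these data known. Counts of the selected cells were summed per library and scaled to CPM. Ratios carry exact conditional binomial intervals, levels exact Poisson intervals and shares Clopper-Pearson intervals at 95%, all for counting error only; PCR copies were collapsed by UMI. No p-value was computed, and log2 ratios used a pseudocount of 0.5 UMI. The counted genes had at least 20 UMIs over both libraries. The ratio and interval code was checked on simulated data.

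Named genes were the selection genes and Prickle1, the 12 highest and 12 lowest ratios by the interval limit nearer to 1 (at least 50 UMIs in at least 10 cells, no cell above 20%), the 20 genes highest against other fibroblasts in both libraries, and up to 6 per list by level and ratio. Other list members were named after their values were seen.

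Doublets were scored with Scrublet in scanpy 1.11.5 and not removed, except as an alternative. Leiden clustering used 2000 variable genes, and the clustering of stromal cells was added after seeing the data. Alternatives varied the cell limits, markers, thinning, doublets, filters, pseudocount, cell weighting, cell-free subtraction and TMM scaling (edgeR 4.0.16). One named gene is not reported here.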

Additional observations from a re-analysis of the deposited data

Results flagged for a closer look

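For 16 named genes the ratio of cKO to control had opposite signs in the Inmt/Myoc/Scara5 fibroblasts and in other stromal fibroblasts, with counting intervals on opposite sides of 1. The differences between the 2 sets of cells were not tested, since each library is 1 sample and the intervals cover counting error only. The values in brackets are log2 ratios of CPM, cKO over control, first in the selected cells and then in other fibroblasts. Higher in cKO in the selected cells were the matrix and inhibitor genes Col3a1 (2.51 against -0.47), Sparc (1.81 against -0.33), Timp1 (2.21 against -0.63), Fstl1 (0.52 against -0.18) and Clec3b (0.55 against -0.17). The signalling genes Inhba (1.961 against -0.66), Frzb (0.97 against -0.28) and Vegfa (0.67 against -0.26) were in the same group. The remaining ones in that direction were Mt1 (0.26 against -0.06), Mt2 (0.68 against -0.31), Ifi205 (0.30 against -0.43), Ces2g (1.67 against -0.59) and Mcm3 (0.92 against -0.61). Lower in cKO in the selected cells and higher in other fibroblasts were Dvl2 (-0.76 against 0.74), Hspb1 (-0.76 against 0.95) and Cd36 (-3.27 against 1.53). For Cd36 a single control cell gave 90.6% of the control UMIs. Hspb1 was at 161 and 94.9 CPM in the selected cells, below its cell-free level of 395 in control and 306 in cKO. Within sub-cluster 2 Col3a1 was at 1056 CPM in control and 2199 in cKO, while Mt1 and Mt2 had log2 ratios of -1.71 and -0.84 there. Inhba had -2.66, Mt1 -1.40 and Mt2 -0.61 after thinning to 3000 UMIs, and with at least 4 markers Mt1 had -0.68, Frzb -0.0015 and Vegfa -0.15.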

How the results depend on the processing

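No paired analysis was possible because each group is 1 library with no replicates. With 1 library per group no alternative could leave out a replicate. The share of the cells among stromal cells was lower in cKO under all 14 alternatives, each using the same marker genes or all but 1, with log2 ratios from -4.04 to -1.19. It moved to 27.8% in control with at least 1000 genes per cell, to 12.8% in control, 1.01% in cKO, a log2 ratio of -3.67 with at least 4 markers, and to 31.0% in control, 13.6% in cKO, a log2 ratio of -1.19 with at least 2. Thinning gave 11.8% in control, 0.717% in cKO, a log2 ratio of -4.04. Leaving out Inmt gave 18.7% in control, 3.08% in cKO. Leaving out C1qtnf3 gave 15.7% in control, 1.81% in cKO, a log2 ratio of -3.12. Leaving out Pamr1 gave 16.3% in control, 3.08% in cKO. Leaving out Scara5 gave 2.95% in cKO, a log2 ratio of -2.83. Leaving out Ces1d gave 15.3% in control, 2.88% in cKO. Leaving out Scn7a gave 18.4% in control, 2.62% in cKO, a log2 ratio of -2.82. The count of genes at least 2-fold apart was 194 higher and 139 lower with at least 100 UMIs per gene, and 2200 and 4191 with at least 1 UMI. It was 1182 lower with at least 4 markers, 217 higher after thinning and 305 higher within sub-cluster 2. With at least 4 markers the list medians were 0.56 for uterine stroma and steroid receptors, -0.39 for planar cell polarity, 0.34 for interferon response and -0.93 for chemokines and cytokines. Of genes whose main interval excluded a ratio of 1, those with the opposite sign there were Inmt 0.090, Il6 -0.096, Cxcl5 -5.87, Fmo2 0.51, Enpp2 0.067, Mt1 -0.68, Adamts4 -0.24, Mmp10 0.37, Frzb -0.0015, Ccl2 -2.20, Cxcl2 -3.59, Rdh10 -0.41, Gdf10 -0.44, Vegfa -0.15 and Plin2 -0.52. After thinning the list medians were 1.84 for adventitial fibroblast genes, -0.47 for glucocorticoid response, 2.42 for collagens, -0.40 for planar cell polarity, 0.77 for interferon response, 0.82 for immediate early and stress, 1.22 for complement, -1.28 for retinoid handling, -0.71 for growth factor and guidance ligands, 0.36 for adipogenic and lipid genes and 1.64 for cell cycle. Of genes whose main interval excluded a ratio of 1, those with the opposite sign there were Inmt 0.43, Fmo2 1.21, Cxcl12 0.23, Errfi1 -1.08, Mt1 -1.40, Mt2 -0.61, Timp2 0.42, Cxcl10 0.80, Dnajb1 1.18, Ccl2 -0.26, Inhba -2.66, Nrg1 -2.73 and Cdkn1a 0.14. Within sub-cluster 2 the list medians were 0.061 for interferon response and -0.81 for chemokines and cytokines. Of genes whose main interval excluded a ratio of 1, those with the opposite sign there were Apod 0.23, Nr3c1 0.15, Mt1 -1.71, Mt2 -0.84, Adamts4 -0.50, Sfrp4 -0.12, Ccl2 -2.35, Plin2 -0.35 and Cdkn1a 0.60. Scaling by TMM shifted log2 ratios by 0.03 and reversed no named gene whose interval excluded 1. The sub-cluster comparison and the removal of the 1 interferon-rich control cell were chosen after seeing the data. Where a value moved, the cause was not tested. The cKO set of 65 cells limits depth: after thinning only 10 remained.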

Other observations

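Cytokine-rich stromal fibroblasts, with at least 3 of the 7 cytokine genes and with or without the selection markers, numbered 88 in control and 268 in cKO. Their Inmt level was 100.0 CPM in control and 10.8 in cKO, Myoc was at 111 and 7.62, and C1qtnf3 at 238 and 24.7. These levels also follow how many cells of the class carried the markers. Among cells with at least 3 selection markers and exactly 3 cytokine genes, 35 in control and 21 in cKO, Inmt was at 117 and 40.9 CPM, Myoc at 164 and 12.8, and C1qtnf3 at 327 and 92.0. No test compares the libraries.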
